A study of Mus musculus with 2 samples.

Results

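Open chromatin was examined in and around 48 mouse genes of the cell cycle and the p53 pathway. The genes fall into 6 roles, which are entry into S phase and DNA replication (13 genes), mitosis (14), E2F factors with the retinoblastoma "pocket" proteins (6), D-type cyclins with their kinases (5), cyclin-dependent kinase inhibitors (4), and p53 with its partners and targets (6). A peak was given to a gene when its summit, the point of strongest signal, lay inside the gene, or when the nearest end of any protein-coding gene, within 100 kb, was an end of that gene. Of 21900 protein-coding genes these 48 held 161 of 77529 control peaks and 140 of 61210 peaks of the Brg1 mutant, and 46 of the 48 held at least 1 peak in each library. The farthest peak still counted lay 95.7 kb from Ccng1, and the nearest left out lay 100.3 kb from Ccnd2, and both were found in each library.

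The peaks come from ATAC-seq, in which a transposase cuts and tags DNA that is not packed into nucleosomes. Nuclei of 50000 tdTomato-positive cells, sorted by flow cytometry from kidneys of E18.5 embryos, went into each reaction. The genotypes are WT control and Brg1cKO/cKO, called cKO below, in which Brg1 (gene Smarca4), an ATPase that moves nucleosomes as part of the BAF complex, is deleted conditionally. The study's title and design call the cells the Wnt4 lineage, the cells in which Wnt4 is switched on as mesenchyme turns into nephron epithelium, although the cell type label of the control library reads only "control", and the labels name neither the driver of the deletion nor the number of animals. Each genotype has 1 library, so no value below has a replicate spread, no test between genotypes was possible, and intervals (exact Clopper-Pearson, 95%) hold counting error alone.

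The lists hold no read counts, so depth is unknown, and a library with less depth or more background yields fewer weak peaks. Control peaks cover 84.6 Mb at a median width of 838 bp, and cKO peaks 71.4 Mb at 900 bp. Peaks at gene ends marked nephron lineage genes (6 of 8), podocyte genes (4 of 5), stroma (3 of 3) and endothelium (3 of 3) in both libraries, and none of 3 blood and immune genes. Among all 21900 protein-coding genes 60.7% had such a peak in both libraries. These few genes therefore cannot place the sort in 1 cell type. Smarca4 had 1 peak at a gene end in each library, which does not check the deletion.

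The cell cycle turns on waves of transcription and protein destruction. Mitogens raise D-type cyclins, which with Cdk4 and Cdk6 phosphorylate the retinoblastoma protein and its relatives and so release E2F factors. E2F then drives the genes that license and copy DNA, while the genes of mitosis peak later and are held down in resting cells by the DREAM complex through CHR promoter elements, often beside CCAAT boxes that bind the activator NF-Y. Inhibitors such as p21 and p27 block the kinases, and p53 raises p21 and the cell death genes Pmaip1 (Noxa), Bbc3 (Puma) and Bax after DNA damage. In the fetal kidney the same genes accompany the change from dividing progenitors to differentiating epithelium.

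The promoters of these genes were open in both genotypes. RefSeq start sites (GRCm38.p6, the assembly of mm10) were at hand for 39 of the 48 genes, and all 39 had a peak over at least 1 start in the control and in the cKO library. In bulk nuclei a site open in fewer cells and a site less open in each cell cannot be told apart. Among 17492 protein-coding genes with such starts, 65.4% had one in the control, 64.5% in the cKO, 64.3% in both, 1.17% in the control alone and 0.263% in the cKO alone. Of the 42 pairs of start peaks at these genes, 26 stood in the strongest of 10 classes of both lists (61.9%, against 43.5% of 10857 pairs over all protein-coding genes). Strength classes, here and below, rank the peaks of a list by the peak caller's p-value into 10 classes of equal size, class 10 being the strongest. The lists differ in length and background, so a step of a class between them is no measure of change.

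The sequences that follow are promoters of these genes, each under a peak of both libraries except that of Cdkn1a. They are from the 250 bases before the start, written 5′ to 3′ on the gene's strand, without bases that any annotated gene covers, and come from RefSeq (GRCm38.p6). In each role group the member with the most significant control start peak was taken, and Mcm5, Cdk1 and Cdkn1a were added after motif counts were seen. Capitals mark matches on either strand to TTTGAA (the core of the CHR, the cell cycle genes homology region), CCAAT, and 3 E2F motifs spelled TTTGGCGC, TTTCCCGC and TTTCGCGC. In Cdkn1a they mark only a match to the consensus of the p53 response element, with a spacer allowed.
Pcna, minus strand, chr2:132253181-132253337: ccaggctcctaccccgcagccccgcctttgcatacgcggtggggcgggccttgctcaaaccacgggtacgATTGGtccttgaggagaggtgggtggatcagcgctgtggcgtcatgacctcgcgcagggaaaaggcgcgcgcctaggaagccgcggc
Mcm5, plus strand, chr8:75109259-75109467: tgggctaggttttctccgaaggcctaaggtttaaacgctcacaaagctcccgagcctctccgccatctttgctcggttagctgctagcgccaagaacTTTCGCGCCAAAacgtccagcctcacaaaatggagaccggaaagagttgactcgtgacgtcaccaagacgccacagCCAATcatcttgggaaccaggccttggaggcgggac
Cdk1, minus strand, chr10:69352913-69353162: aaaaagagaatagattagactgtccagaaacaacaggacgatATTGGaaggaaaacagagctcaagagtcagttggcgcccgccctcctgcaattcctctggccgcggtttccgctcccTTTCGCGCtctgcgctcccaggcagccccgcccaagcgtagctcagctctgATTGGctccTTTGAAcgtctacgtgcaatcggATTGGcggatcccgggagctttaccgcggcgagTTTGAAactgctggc
E2f3, minus strand, chr13:29986065-29986313: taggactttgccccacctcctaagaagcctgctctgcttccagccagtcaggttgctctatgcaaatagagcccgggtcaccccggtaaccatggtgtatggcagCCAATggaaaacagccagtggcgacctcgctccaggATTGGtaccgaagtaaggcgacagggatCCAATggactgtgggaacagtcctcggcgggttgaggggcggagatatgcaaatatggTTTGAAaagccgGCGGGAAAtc
Cdk4, plus strand, chr10:127063285-127063534: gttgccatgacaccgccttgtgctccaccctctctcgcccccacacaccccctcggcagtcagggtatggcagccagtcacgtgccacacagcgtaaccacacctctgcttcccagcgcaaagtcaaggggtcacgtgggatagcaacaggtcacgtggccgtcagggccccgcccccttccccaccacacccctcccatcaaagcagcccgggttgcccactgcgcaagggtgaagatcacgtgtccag
Cdkn1b, plus strand, chr6:134920151-134920400: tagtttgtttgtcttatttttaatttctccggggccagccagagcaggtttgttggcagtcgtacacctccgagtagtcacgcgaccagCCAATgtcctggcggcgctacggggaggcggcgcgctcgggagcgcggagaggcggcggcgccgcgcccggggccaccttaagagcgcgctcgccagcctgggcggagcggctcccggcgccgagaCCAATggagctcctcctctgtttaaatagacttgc
Trp53, plus strand, chr11:69580251-69580347: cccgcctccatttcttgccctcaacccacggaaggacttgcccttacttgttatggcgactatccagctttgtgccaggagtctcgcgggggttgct
Cdkn1a, plus strand, chr17:29090729-29090978: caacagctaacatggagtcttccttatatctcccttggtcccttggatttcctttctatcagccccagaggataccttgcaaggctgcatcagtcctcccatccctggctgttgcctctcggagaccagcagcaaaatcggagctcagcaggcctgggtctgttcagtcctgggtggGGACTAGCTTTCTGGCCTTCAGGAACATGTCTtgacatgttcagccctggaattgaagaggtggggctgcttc

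Pcna, the sliding clamp of DNA polymerase, shares this stretch with the neighbouring gene Cds2, and Trp53 shares its own with Wrap53. The mitosis member by that rule was Aurka, a spindle kinase, and no sequence is shown for it because its 250 bases lie wholly within the annotated spans of Aurka and Cstf1. The start peak of Pcna was 1708 bp wide in the control (chr2:132252202-132253909) and 1698 bp in the cKO, that of Aurka 2040 and 2017 bp (control chr2:172369599-172371638), and that of E2f3 4138 and 4110 bp (control chr13:29982955-29987092). The start peak of Cdk4 was 2115 and 2705 bp (control chr10:127062662-127064776), that of Cdkn1b 2959 and 2907 bp (control chr6:134919187-134922145), and that of Trp53 3923 and 3955 bp (control chr11:69578176-69582098). All of these lay in class 10 of both lists, which in the control follows from choosing the most significant start peak.

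Promoter words were counted by role. In the 300 bases from 250 before to 50 after a start, TTTGAA occurred in 8 of 11 mitosis genes with a sequence (72.7%) in 1 of 11 replication genes (Mcm2), in 3 of 5 E2F and pocket genes (E2f2, E2f3 and E2f8) and in 1 of 5 p53 genes (Bax), against 3230 of all 17492 protein-coding genes. The mitosis genes with it were Cdc20, Cdk1, Mki67, Top2a, Ccnb2, Plk1, Aurka and Bub1b. Its variant TTCGAA was in 4 of 11 mitosis genes and 1 of 11 replication genes, against 2.13% of all. CCAAT was in 30 of the 39 members, among them 11 of 11 mitosis genes, 8 of 11 replication genes, 3 of 5 E2F and pocket genes, 1 of 3 D-type cyclins and kinases, 3 of 4 inhibitors and 4 of 5 p53 genes, against 42.3% of all. An E2F motif was in 8 of 11 replication genes (Mcm3, Mcm5, Mcm6, Mcm7, Cdc25a, Cdc6, Cdt1 and Cdk2), in 3 of 5 E2F and pocket genes (E2f2, E2f3 and Rbl1), in 1 of 11 mitosis genes (Cdk1) and in 1 of 4 inhibitors (Cdkn2a), against 2.76% of all. In Mcm5, a subunit of the replicative helicase, 2 E2F matches overlap, beginning 153 and 149 bases before the start. In Cdk1, the kinase of mitosis, TTTGAA begins 71 and 15 bases and TTTCGCGC 131 bases before it. Matches are letters in a window, not sites shown to be bound.

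The p53 response element was searched in the same 300 bases, by its consensus with a spacer of up to 13 bases. It matched at 1 of the 39 members with a sequence, Cdkn1a, and at 10 of 17492 protein-coding genes (0.0572%). The rest of each gene was not searched, so the count does not show that other members lack an element. Cdkn1a encodes p21. The capitals printed above mark the 32 bases that the search returned, spacer included, and do not show which bases p53 binds. This match begins 73 bases before the upstream of the 2 annotated starts of the gene. No peak lay over that start in either library, the nearest peak being 2234 bp away in the control and 2268 bp in the cKO. The other start, 2790 bp downstream, was covered in both, by a control peak of 2878 bp in class 10 and a cKO peak of 2907 bp in class 9.

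**Figure D1:**
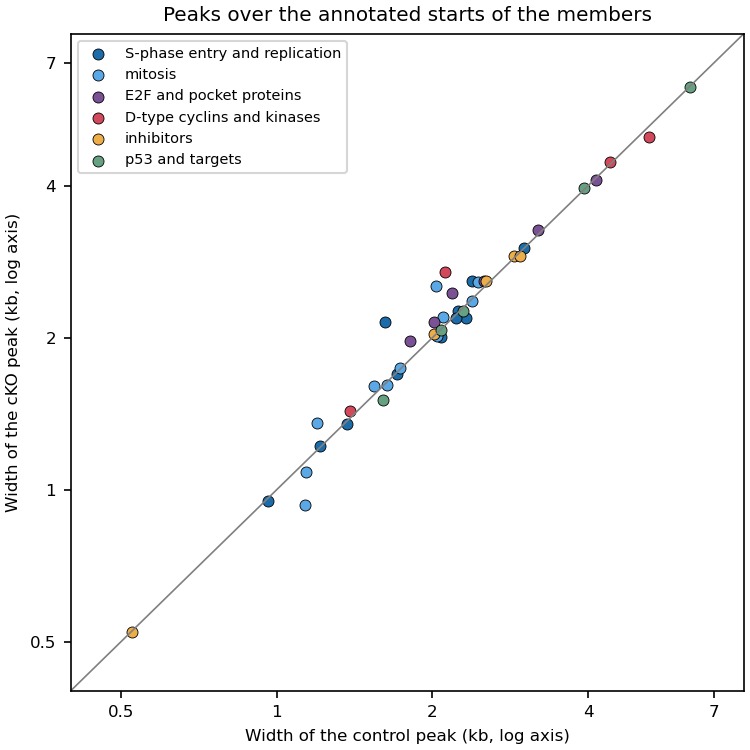
Width of the peak over each annotated start, in kb on log axes, in the control (horizontal) and the cKO library (vertical). Each of the 42 points is 1 pair of peaks coloured by role and the line marks equal width. Points lie close to the line, with 19 of 42 below it.

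Start peaks were of like width and summit in both libraries. Their median width was 2091.5 bp in the control and 2192.5 bp in the cKO. Within pairs the median difference, cKO minus control, was only 12 bp, against -19 bp for the pairs of all protein-coding genes. Of the 42 pairs 19 (45.2%) were narrower in the cKO, against 58.7% of the pairs of all protein-coding genes. The summit moved by a median of 2.5 bp, against 5 bp for all, and by at most 100 bp in 41 of 42. The exception was Rbl1 (p107), whose summit stood 302 bp apart in a peak of 1808 bp in the control and 1975 bp in the cKO. All 11 replication pairs were in class 10 of both lists, against 5 of 11 mitosis pairs and 7 of 14 pairs of D-type cyclins, kinases, inhibitors and p53 genes. The weakest start peak was that of the downstream start of Cdkn2a, which encodes p16 and p19Arf from separate starts. This peak was 525 bp in class 3 of the control and 523 bp in class 2 of the cKO. The upstream start of Cdkn2a had peaks of 2012 and 2034 bp in class 9 of both.

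At annotated gene ends, which were available for all 48 genes, 44 had a summit within 1000 bp in both libraries, 1 in the cKO alone and 3 in neither. Among all 21900 protein-coding genes 60.7% had one in both, 2.11% in the control alone, 0.753% in the cKO alone and 36.4% in neither. The 3 genes without one were Cdk6, Cdkn1a and Bbc3, whose start peaks have summits further inside the annotated gene. At Cdk6 the summit lay 11 bp from the annotated start in the control and 10 bp in the cKO, but the annotated gene extends farther upstream. The cKO-only call is Ccnd1, where the summit of a class 1 peak lay 0.979 kb from a gene end in the cKO and 1.028 kb in the control, and the 2 peaks overlapped.

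Away from starts the 2 libraries differed more, and the peak lists of all genes set the scale. Of all control peaks 74.1% overlapped a cKO peak by at least 1 bp, called found below, and 94.1% of all cKO peaks overlapped a control peak. Of the control peaks of the 48 genes 135 of 161 were found (83.9%, 77.2 to 89.2). Strong peaks are found more often than weak ones, from 35.5% of all control peaks in class 1 to 100% in class 10, so each set is read beside the share found among all peaks of the same classes, called the expected share. For the 48 genes this was 82.1%, 1.75 percentage points below the observed. Of their cKO peaks 135 of 140 were found (96.4%, 91.9 to 98.8), with 96.0% expected. Asking for an overlap of at least 50% of both peaks left 125 of 161 control peaks (69.8% over all genes) and 125 of 140 cKO peaks (88.4% over all genes). At distal peaks, those farther than 1000 bp from any gene end, 83 of 107 control peaks were found (69.1% over all genes) and 82 of 86 cKO peaks (92.5% over all genes). The share found at these genes lay above that of all peaks and close to that of all peaks of equal strength.

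**Figure D2:**
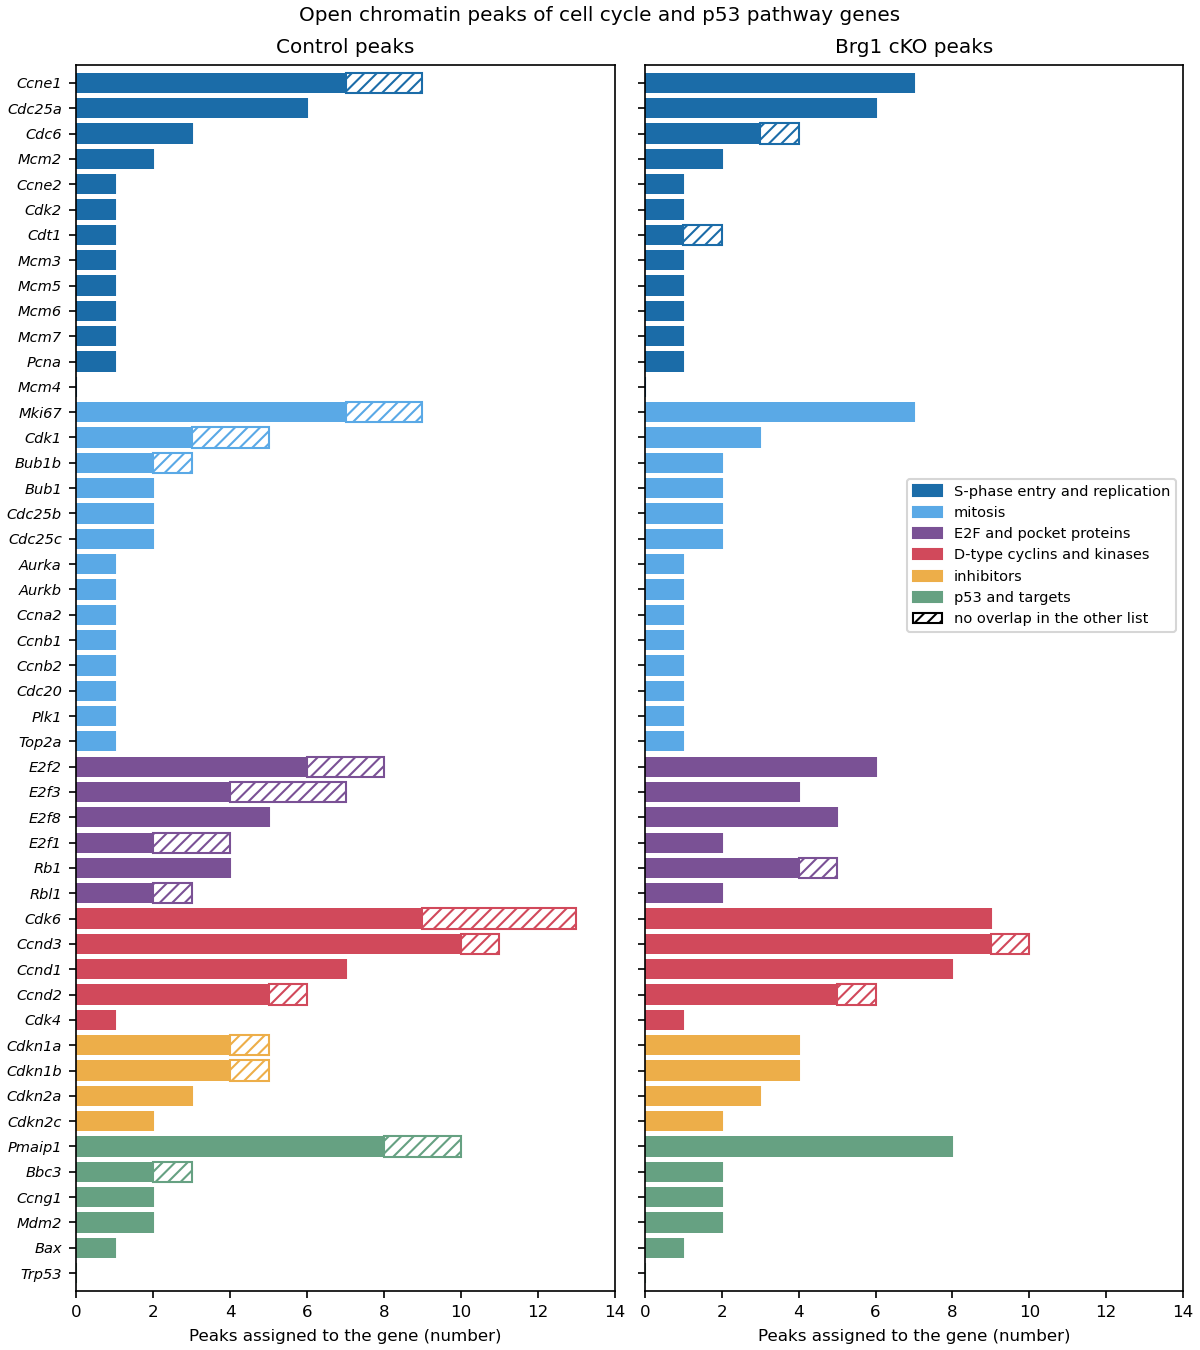
Number of control peaks (left) and cKO peaks (right) given to each of the 48 genes, coloured by role. Solid bars count peaks found in the other list and hatched bars those with no overlap there, 26 of 161 control and 5 of 140 cKO peaks.

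Many of these genes had 1 peak at a gene end and nothing else. A single peak in each library, in class 9 or 10, was all that was given to 17 members, namely Ccna2, Ccnb1, Ccnb2, Ccne2, Cdk2, Cdk4, Cdc20, Mcm3, Mcm5, Mcm6, Mcm7, Pcna, Top2a, Aurka, Aurkb, Plk1 and Bax. It was found in the other library at each, which peaks of such strength nearly always are. Of all control peaks in classes 9 and 10, 99.9% and 100% were found, and of all cKO peaks 99.98% and 100%. Exactly 1 control peak was given to 37.5% of the members, against 21.5% of all protein-coding genes. At the other extreme, 14 members (29.2%) had 5 or more control peaks, against 23.4% of all protein-coding genes. These 14 held 106 of the 161 control peaks and 21 of the 26 that were not found. Of all control peaks 25.9% were not found. All control peaks were found at 31 of 46 members (67.4%), against 53% of the 16706 protein-coding genes with a control peak. All cKO peaks were found at 41 of 46, against 86.3% of 16300 genes.

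The genes of S-phase entry and replication held 28 control peaks, of which 26 were found (92.9%, 76.5 to 99.1, expected 88.9%), and 28 cKO peaks, of which 26 were found (expected 97.5%). Both control peaks not found were at Ccne1, which encodes cyclin E1, the partner of Cdk2 at S-phase entry. Ccne1 had 9 control peaks with 7 found (7.29 expected) and 7 cKO peaks with 7 found. The more significant of its unmatched peaks, chr7:38074490-38074920, lay 23.1 kb from the gene in class 2, 318 bp from the nearest cKO peak. Without Ccne1, the member of the group with the most control peaks, 19 of 19 were found, which follows from both unmatched peaks being there. Cdc25a, the phosphatase that activates Cdk2, had 6 peaks in each library and all 6 were found (5.10 expected of the control peaks).

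The licensing factors Cdc6 and Cdt1 each had 1 weak cKO peak with no control counterpart. Cdc6, which loads the helicase, had 3 control peaks, all found, and 4 cKO peaks, of which chr11:98918031-98918609 inside the gene had no control peak over it. Cdt1, its partner in licensing, had 1 control peak and 2 cKO peaks, the unmatched one being chr8:122564471-122565209, 3.45 kb from the gene. These cKO-only peaks stood in classes 2 and 1, where 82.2% and 75.4% of all cKO peaks were found in the control list. The helicase genes Mcm2 (2 peaks), Mcm3, Mcm5, Mcm6 and Mcm7 (1 each) had equal numbers in both libraries, all found. Mcm4 had no peak of its own by the rule, because the peak at its end, 1944 bp in the control and 1898 bp in the cKO and in class 10 of both, was nearer to the end of Prkdc.

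The mitosis genes held 31 control peaks with 26 found (83.9%, 66.3 to 94.5, expected 82.0%) and 26 cKO peaks with 26 found. Their 5 unmatched control peaks belonged to 3 genes. Mki67, the proliferation antigen Ki-67, had 9 control peaks with 7 found (5.70 expected) and 7 cKO peaks, all found. Its start peak was 2102 bp wide in the control and 2199 bp in the cKO, in class 10 of both, and its unmatched peaks lay 30.8 and 77.7 kb away in classes 3 and 1. Cdk1 had 5 control peaks with 3 found (4.36 expected) and 3 cKO peaks. Of its unmatched peaks, chr10:69371402-69372009 lay 18.7 kb from the gene in class 5 and chr10:69334607-69335810 lay 190 bp from the end opposite the start, in class 4, with no cKO peak within 12.4 kb. Bub1b, a spindle checkpoint gene, had 3 control peaks with 2 found and 2 cKO peaks. Bub1, Cdc25b and Cdc25c had 2 peaks in each library, all found.

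Among control peaks at an overlap of 1 bp, the E2F and pocket protein genes had the lowest share found of the 6 roles. Of their 31 control peaks 23 were found (74.2%, 55.4 to 88.1), where 84.8% was expected, a difference of -10.6 points that lies within the counting interval. Of 24 cKO peaks 23 were found (95.8%, expected 96.6%), a higher share than in the replication group or the D-type cyclins and kinases. With the more significant 50% of each list 17 of 22 control peaks were found, and the p53 genes then had the lowest share. The 8 unmatched control peaks were all away from gene ends, where 15 of 23 were found (65.2%, 42.7 to 83.6) against 79.2% expected of distal peaks of equal class. The difference stayed below 0 under each of the 10 alternative settings, from -15.4 points with only peaks inside or within 5 kb of a gene to -2.10 points with the more significant 50% of each list.

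E2f3, an activator of the G1/S genes, had 7 control peaks with 4 found (5.95 expected) and 4 cKO peaks, all found. Inside the gene, chr13:29944364-29945254 in class 7 and chr13:29938882-29940121 in class 6 had no cKO peak within 8.99 and 12.2 kb. E2f1, the founding member of the family, had 4 control peaks with 2 found (3.45 expected) and 2 cKO peaks. Its unmatched peak chr2:154565217-154567111, 1895 bp wide and inside the gene 4.08 kb from its end, was the strongest unmatched peak of all 48 genes, in class 8 with a -log10 p of 6.98. It lay 689 bp from the nearest cKO peak. Among the strongest 3 classes 78 of 79 control peaks of the members were found, all but this one. In class 8 this was 13 of 14, against 97.2% of all control peaks of that class. Of all control peaks in classes 9 and 10, 99.9% and 100% were found.

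E2f2 had 8 control peaks with 6 found (6.33 expected) and 6 cKO peaks, the unmatched ones in classes 1 and 2 inside the gene. E2f8, a repressor of the family, had 5 peaks in each library, all found. Rb1, the retinoblastoma gene, had 4 control peaks, all found, and 5 cKO peaks, of which chr14:73331353-73331714, 5.50 kb from the gene in class 1, was not found. Rbl1 had 3 control peaks with 2 found and 2 cKO peaks.

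**Figure D3:**
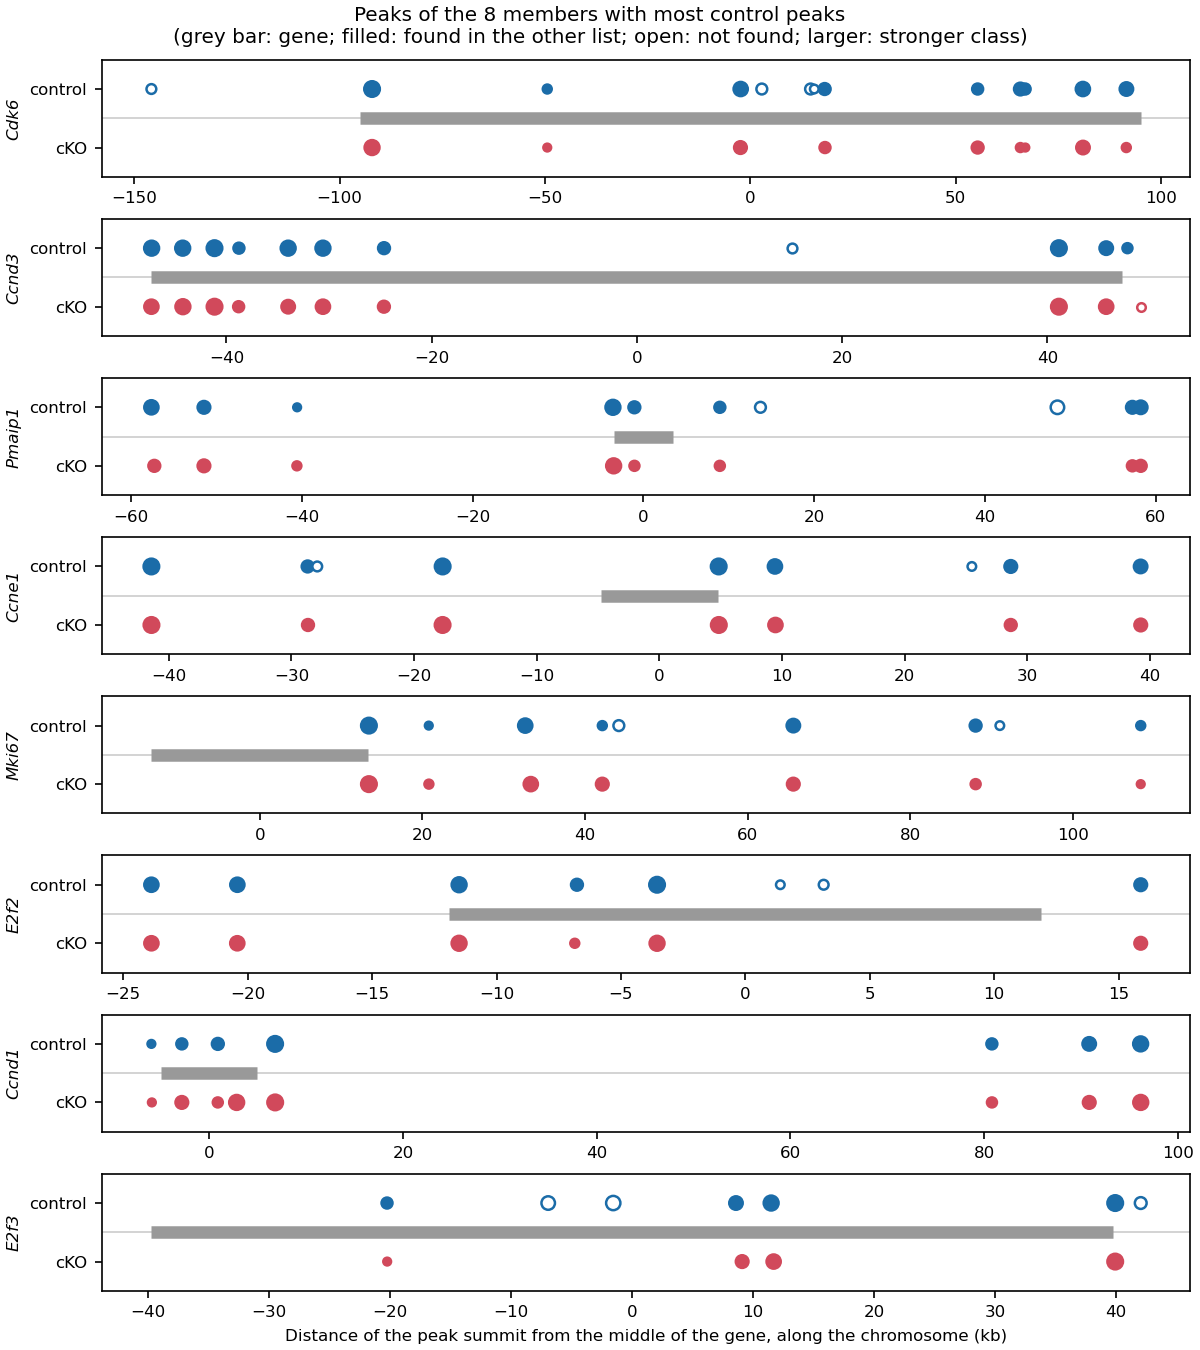
Summits of the peaks given to the 8 genes with most control peaks, by distance in kb from the middle of the gene along the chromosome. Control peaks are above the grey gene bar and cKO peaks below, filled if found in the other list and open if not, with larger points for stronger classes. Open points are mostly small, the larger ones being 2 inside E2f3 and 1 of Pmaip1.

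The D-type cyclins and their kinases held the most peaks per gene, a median of 7 in the control against 2 over all protein-coding genes. Of 38 control peaks 32 were found (84.2%, 68.7 to 94.0, expected 75.7%), and of 34 cKO peaks 32 were found (94.1%, expected 93.3%). Cdk6 had 13 control peaks with 9 found (8.93 expected) and 9 cKO peaks, all found. Its 4 unmatched peaks stood in classes 1 to 3, and the most significant, chr5:3450560-3450949, lay inside the gene 80.4 kb from its end. These 4 are the most control-only peaks of any member, and the number found was close to that expected from all peaks of equal strength. Its start peak was 5258 bp wide in the control and 4985 bp in the cKO.

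The 3 D-type cyclins had nearly equal numbers in both libraries. Ccnd1 had 7 control peaks, all found (5.29 expected), and 8 cKO peaks, all found. The numbers differ because 1 control peak of 6864 bp (chr7:144937175-144944038) overlapped 2 cKO peaks of 1314 and 5393 bp. The 3 farthest control peaks of Ccnd1 lay 75.9, 85.9 and 91.2 kb from the gene in classes 4, 7 and 9, with cKO peaks in classes 3, 6 and 9. Ccnd2 had 6 peaks in each library with 5 found in each (4.31 expected of the control peaks), and the peak at its gene end spanned 7165 bp in the control and 7089 bp in the cKO. The cKO-only peak of Ccnd2, chr6:127148502-127148884, lay 103 bp from a control peak. Ccnd3 had 11 control peaks with 10 found (9.23 expected) and 10 cKO peaks with 9 found, the exception being chr17:47601382-47602111, 857 bp from a control peak. At its far end 1 cKO peak of 3318 bp overlapped 2 control peaks of 1492 and 1027 bp. Cdk4 had 1 peak in each library.

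The inhibitor genes held 15 control peaks with 13 found (86.7%, 59.5 to 98.3, expected 78.7%) and 13 cKO peaks, all found. Cdkn1a had 5 control peaks with 4 found (3.82 expected) and 4 cKO peaks, and the peak not found, in class 2, lay inside the gene. Its 3 upstream peaks, 21.7, 12.7 and 10.1 kb from the gene in classes 4, 6 and 7 of the control, stood in classes 1, 5 and 6 of the cKO list. All 3 were found, and a step of a class between the lists is no measure of change. Cdkn1b (p27) had 5 control peaks with 4 found (4.13 expected) and 4 cKO peaks, and its unmatched peak chr6:134947458-134947681, 224 bp wide, lay 22.1 kb away in class 3. Cdkn2a had 3 peaks in each library, all found (1.86 expected of the control peaks), and Cdkn2c (p18) had 2 in each, all found.

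The p53 genes held 18 control peaks with 15 found (83.3%, 58.6 to 96.4, expected 83.3%) and 15 cKO peaks, all found. Trp53 itself had none by the rule, because the summit under its start peak was nearer to Wrap53, 884 bp away in the control. Pmaip1 had 10 control peaks with 8 found (7.71 expected) and 8 cKO peaks, all found, and its unmatched peaks lay 45.0 and 10.2 kb from the gene in classes 6 and 3. Bbc3 had 3 control peaks with 2 found and 2 cKO peaks, and its start peak spanned 6301 bp in the control and 6262 bp in the cKO. Mdm2, the ubiquitin ligase that degrades p53, and Ccng1 (cyclin G1) had 2 peaks in each library, and Bax had 1, all found. Among the more significant 50% of each list 7 of 13 control peaks of these genes were found (53.8%), a difference of -24.2 points from the share expected there. In that setting a control peak counts as found only where a cKO peak of the upper 50% overlaps it. The share lay below the interval given above (58.6 to 96.4), while the difference moved by less than its counting interval.

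Replication and mitosis genes were then set against D-type cyclins, inhibitors and p53 genes, as 2 arms of 27 and 15 genes. Of the control peaks 52 of 59 were found in the replication and mitosis arm (88.1%, 77.1 to 95.1) and 60 of 71 in the regulator arm (84.5%, 74.0 to 92.0). The raw difference was 3.63 points. The expected shares were 85.3% and 78.2%, so that at equal strength the replication and mitosis arm stood 3.42 points below the regulator arm (difference -3.42, interval by normal approximation -15.2 to 8.37). The difference took the other sign with strength classes by peak area (3.79) and with the more significant 50% of each list (4.82). Of the cKO peaks 52 of 54 and 60 of 62 were found, a difference at equal strength of -3.60 points (-10.3 to 3.09). Both intervals span 0 and are wide, so that neither a difference nor its absence can be read from them.

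**Figure D4:**
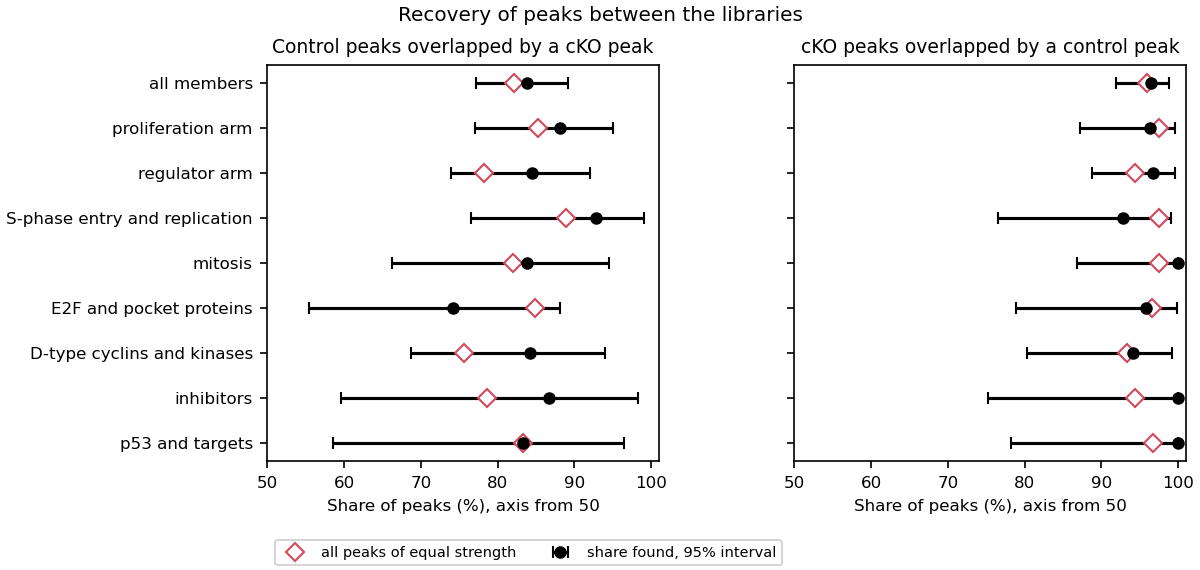
Share of control peaks overlapped by a cKO peak (left) and of cKO peaks overlapped by a control peak (right), in percent on an axis from 50, for all members, the 2 arms (proliferation, meaning replication and mitosis, and regulator) and the 6 roles. Black points are shares with exact 95% intervals and open diamonds the shares among all peaks of equal strength. The diamond lies inside the interval in every row, and E2F and pocket proteins are farthest below it among control peaks.

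The arms differed in where their peaks lay. In the replication and mitosis arm 50.8% of control peaks lay within 1000 bp of the end of some annotated gene, against 22.5% in the regulator arm and 23.6% of all control peaks. The median was 1 control peak a gene in the first arm and 3 in the regulator arm. Exactly 1 control peak was given to 16 of 27 replication and mitosis genes and to 2 of 15 regulators, against 21.5% of all protein-coding genes. At distal control peaks alone 23 of 29 (79.3%) and 45 of 55 (81.8%) were found, where 71.3% and 73.7% were expected. The difference at equal strength was then -0.06 points (-18.0 to 17.9). At distal cKO peaks 22 of 24 (91.7%) and 45 of 46 (97.8%) were found, where 94.2% and 93.3% were expected. There the difference was -7.03 points (-18.9 to 4.81), and both intervals span 0.

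Over all genes 91.5% of the 20043 unmatched control peaks were distal and 90.4% stood in the weakest 5 classes, and of the 3622 unmatched cKO peaks 92.1% and 99.1%. The members' unmatched peaks lay near these shares. The 26 control-only peaks of 15 genes ran from class 1 to class 8 with a median of 3, and 22 stood in the weakest 5 classes. Among them 24 were distal and 13 lay inside their gene, and their widths ran from 201 to 1895 bp. The 5 cKO-only peaks of 5 genes stood in classes 1 and 2, 4 were distal, and they were 362 to 739 bp wide. Control-only peaks outnumbered cKO-only peaks at 13 genes, the reverse held at 3 (Cdc6, Cdt1 and Rb1), both were equal at Ccnd2 and Ccnd3, and 28 genes had neither. Over all genes 25.9% of control and 5.92% of cKO peaks were unmatched, so more control-only than cKO-only peaks was the pattern of the whole lists.

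The other genes of the pathway, 79 in 4 lists, are given by their counts. Of the control peaks of 25 other replication genes 73 of 85 were found (85.9%, expected 80.6%), of 24 other mitosis genes 46 of 51 (90.2%, expected 83.9%), and of 22 other p53 targets and partners 63 of 80 (78.8%, expected 79.5%). The 8 other inhibitor and retinoblastoma family genes had 20 of 29 found (69.0%, 49.2 to 84.7), where 78.2% was expected, and 9 of 17 at distal peaks, where 69.5% was expected. Within that list E2f7, a repressor, had 5 of 8 found (5.86 expected), E2f6 5 of 7 (5.53), Rbl2 (p130) 1 of 3 (1.92), E2f5 1 of 2 (1.77) and Cdkn1c (p57) 3 of 4 (3.35). All were found at Cdkn2b (3 of 3, 2.25 expected), Cdkn2d and E2f4 (1 of 1 each). Among the p53 targets Gadd45a had 5 of 11 found (8.19 expected), Sesn1 3 of 6 (4.17) and Sesn2 3 of 5 (3.07), and Btg2 had 9 of 9 (8.46). All control peaks were found at 13 of these 22 genes, against 53% of all protein-coding genes with a control peak. A summit within 1000 bp of a gene end was present in both libraries at 23 of 25, 21 of 24, 21 of 22 and 8 of 8 genes of these lists, in the order given. Among all protein-coding genes the share was 60.7%.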

How the data were processed

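Each library has 1 deposited list of peaks (narrowPeak). The submitters' processing notes name mm10 and the tools Genrich, SAMtools and Trim Galore. Not given in the sources used here: aligner, settings, tool versions, and how duplicates and read ends were treated. The authors' score per peak is capped at 1000 and was not used. The deposited signal per peak, the area under the caller's curve, served only in an alternative ranking. The deposited -log10 p (and q) is the caller's and was used to rank peaks within a list, never between lists.

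Coordinates are 1-based mm10. Genes and promoters came from the RefSeq tables of GRCm38.p6, and all 48 genes matched; Rb1, Ccnd1, Cdc25c, Ccna2, Ccnd2, Pmaip1, Ccne2, Aurkb and Mcm4 have no promoter entry there. A peak counted as found when it overlapped a peak of the other list by at least 1 bp. The expected share is the mean, over a set's peaks, of the share found among all peaks of the list in the same of 10 strength classes by -log10 p. Peaks within 1000 bp of an end of any annotated gene count as gene-end peaks, all others as distal. With 1 library per genotype nothing was tested. Overlap, assignment and expected shares were tested on simulated data. Python 3.11.15 with pandas 2.3.3 and scipy 1.17.1 was used.

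The genes, roles and other lists were chosen with earlier results of these data known. Every member is named, and full values go to the 3 with most control peaks and the 3 with the largest excess of control-only peaks in each role, leaving out excesses of 0, and to Mki67, Ccnd1, Cdkn1a and Trp53. Coordinates are given for start peaks of the promoter rule, for every cKO-only peak and for the most significant control-only peak of a role, except that of Pmaip1, given by its distance; others, the peaks of E2f3, Cdk1 and Ccnd1 among them, and the other pathway genes named were picked after their values were seen. Alternatives covered overlap, thresholds, list length, strength classes, assignment and single members.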

Additional observations from a re-analysis of the deposited data

How the results depend on the processing

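Among recomputed values for all members, the 2 arms, their difference and gene-end counts, 127 moved by less than their counting interval and 7 by more. When only as many of the strongest control peaks were kept as there are cKO peaks, the share of control peaks found was 90.0% for all members and 93.2% for the regulator arm, and the share of cKO peaks found was 90.0% and 88.7%. With an overlap of at least 50% of both peaks, the share of cKO peaks found was 89.3% for all members and 88.7% for the regulator arm. With the more significant 50% of each list, the regulator arm stood -5.27 points from its expected share of control peaks. These settings leave fewer peaks or ask for more overlap by construction. For single roles 183 values stayed within the interval and 21 moved beyond it. An expected share by strength class and position together, added after the data were seen, gave an arm difference of -3.49 points. No paired analysis was possible because each genotype has 1 library, and for the same reason no replicate could be left out. Depth is unknown and peaks under the caller's threshold were not analysed here; 25.9% of control against 5.92% of cKO peaks were unmatched over all genes.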
